A study of Rattus norvegicus with 9 samples.

Results

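The 10 genes described here make up the insulin-like growth factor (IGF) axis of primary rat osteoblasts: the ligands Igf1 and Igf2, the receptor Igf1r, the growth hormone receptor Ghr, and the IGF binding proteins Igfbp2, Igfbp3, Igfbp4, Igfbp5, Igfbp6 and Igfbp7. They were found by gene symbol among the 19085 genes of the deposited table, each symbol stood on 1 row, and all 10 passed the filter on low counts that left 13256 genes for testing. The list was chosen by family membership, with the levels and fold changes of these genes in the same 9 libraries already known, so the values below describe its members, and the number of them called is not independent evidence. Fold changes of the members are therefore given with standard errors (SE) and without p-values.

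Bulk mRNA was sequenced in 3 groups of 3 libraries. All cells were first-passage osteoblasts from the calvaria of newborn male Sprague-Dawley rats, kept for 7 days in osteogenic induction medium with β-glycerophosphate, ascorbic acid and dexamethasone. The control group received this medium alone, the thrombin group also received 20 U/mL of the protease thrombin, and the same thrombin dose was combined in the PD03 group with 0.1 μM PD0325901 (PD03), which blocks the kinase MEK. No group received PD03 without thrombin, and the dexamethasone was shared by all groups. The labels name the knee as tissue, whereas their growth protocol and the paper name the calvaria. The extraction protocol in the labels speaks of hydrogel groups, which the culture description does not mention, and a labelled protocol for short signalling assays writes the PD03 dose in mM, while the μM dose above comes from the series' design text. The paper calls the 3 samples of a group independent, but whether they came from separate animals is not given, so the tests measure the spread between these samples.

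IGF1 and IGF2 are secreted growth factors that act on bone cells mainly through the IGF1 receptor, a tyrosine kinase that feeds the PI3K-Akt and the Ras-MEK-Erk pathways. In the tissue fluid most IGF is held by binding proteins, which can keep it from the receptor, carry it, or fix it to the matrix until proteases cleave them, and osteoblasts store IGF in bone in this way. Growth hormone, acting through its receptor, is a classical inducer of Igf1 in liver and bone.

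Total counts were 15447832 to 19841468 per library. A gene was called where edgeR's quasi-likelihood test gave a Benjamini-Hochberg adjusted p-value under 0.05 over all 13256 genes and the log2 fold change exceeded 0.58 in either direction. Levels of single genes are given as CPM, the count relative to the library total after TMM scaling, and levels of different genes are compared only as FPKM, the authors' value per kilobase of gene length. The osteoblast label was checked against 10 markers. Col1a1 and Col1a2 were among the most abundant transcripts, lowest with thrombin and highest with PD03. Col1a1 had means of 47443, 42854 and 72132 CPM in the control, thrombin and PD03 groups, and Col1a2 of 16867, 14517 and 24495 CPM. Runx2 stood at 42.8, 51.1 and 32.1 CPM in the same groups. Spp1 (osteopontin) had the opposite order to the collagens, with means of 63.7, 184.9 and 53.1 CPM, and Sp7 stood at 4.25, 6.20 and 4.95 CPM. Phex had means of at most 0.712 CPM. In contrast, the late markers Bglap, Ibsp and Dmp1 had means of at most 0.16 CPM in every group. Alpl had the order of the collagens at a low level, with means of 1.67, 0.345 and 3.11 CPM. The summed osteoblast markers, nearly all collagen, stood at 60720 to 66510, 55830 to 59060 and 95120 to 98250 CPM. Among markers of other cells, Ptprc, Adipoq and Pecam1 had means of at most 0.35 CPM. The summed smooth muscle and pericyte markers stood at 95.7 to 99.8 CPM in the control libraries, 151 to 158 CPM with thrombin and 222 to 225 CPM with PD03. The summed adipocyte markers, nearly all Lpl, stood at 202 to 213, 98.3 to 104 and 156 to 166 CPM. Of the other adipocyte markers, Adipoq, Plin1, Fabp4 and Cidec had means of at most 0.25 CPM. The sum was lowest with thrombin, as were the collagens, Alpl, the summed chondrocyte markers and most of the 10 genes. Sums were 20.4 to 23.7, 29.0 to 32.8 and 17.5 to 18.6 CPM for myeloid markers (mostly Cd14), 7.89 to 8.90, 7.35 to 9.76 and 12.03 to 14.05 CPM for endothelial markers, 94.5 to 104, 68.6 to 74.6 and 88.7 to 95.8 CPM for chondrocyte markers (mostly Col2a1), and 7.40 to 8.84, 7.34 to 8.86 and 8.74 to 10.1 CPM for muscle markers. Within the chondrocyte list, Col2a1 had means of 84.4, 49.2 and 56.4 CPM in the control, thrombin and PD03 groups. Sox9 went the other way with thrombin, with means of 7.68, 14.3 and 16.2 CPM, as did Acan with 0.59, 1.43 and 1.19 CPM. The means of Comp (3.45, 2.44 and 10.97 CPM) and Col9a1 (4.09, 3.77 and 7.47 CPM) were lowest with thrombin and highest with PD03. The part of these differences in the results was not tested, and in bulk RNA fewer cells of a type and less RNA per cell cannot be told apart. The 6 genes fixed as a check of MEK activity (Dusp6, Egr1, Etv4, Etv5, Spry2 and Spry4) were all called lower with PD03 than with thrombin alone, with log2 fold changes from -3.70 to -0.61. With thrombin against control none of the 6 was called, with log2 fold changes from -0.52 (Etv5) to 0.04 (Etv4). In the PD03 group all 6 were called lower than in the control group, from -4.18 (Egr1) to -0.87 (Spry4).

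With thrombin against control, 7 of the 10 genes were called lower and none higher, where 5.44% of all tested genes were called lower and 2.62% higher. With PD03 against thrombin, 8 were called higher and none lower, where 9.61% of all tested genes were called higher and 6.31% lower. The share of higher genes among those called was 60.4% here, and 46.5% when libraries were scaled by their totals. The 7 genes called lower with thrombin were all among these 8, a pattern of 3.69% of all tested genes, and the 2 comparisons share the thrombin libraries. With PD03 against control, 2 members were called, both higher, where 4.9% of all tested genes were called higher and 4.07% lower, and the share of higher genes among those called was 54.6%, or 34.1% with library totals. The median log2 fold change of the 10 was -0.97 with thrombin, 0.90 with PD03 against thrombin and -0.02 with PD03 against control, beside medians of -0.006, 0.0109 and -0.0039 over all tested genes. Libraries of 2 groups did not overlap for 9, 9 and 7 of the 10 genes in these comparisons, beside 40.3%, 55.5% and 47.8% of all tested genes.

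**Figure D1:**
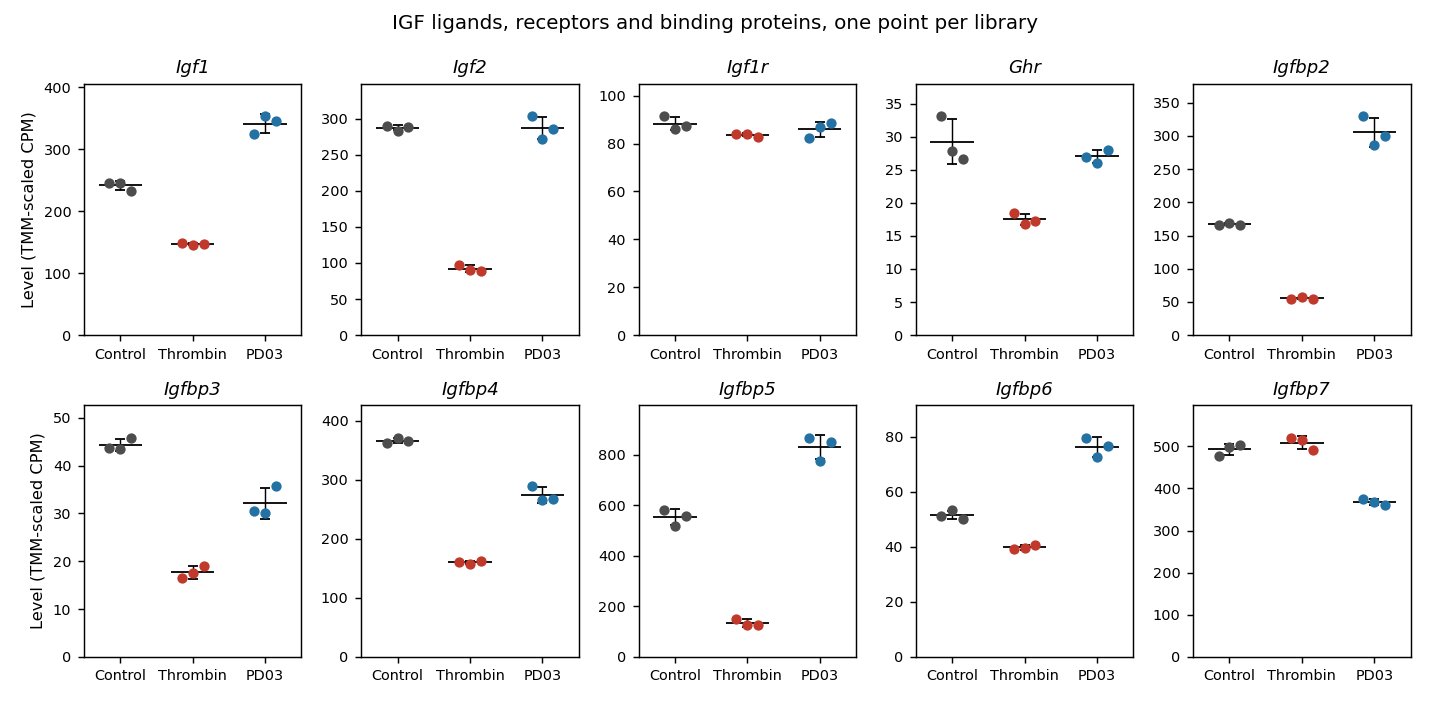
Levels of the 10 IGF axis genes in TMM-scaled CPM (linear axes from 0, a separate scale for each gene), with 1 point per library, a line at the mean of 3 libraries and bars of 1 SD. Thrombin libraries lie lowest for 8 of the genes, whereas the Igf1r libraries all lie between 82.4 and 91.3 CPM and Igfbp7 is lowest in the PD03 group.

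The sequences upstream of Igfbp2 and Igfbp5 are shown because these genes had the largest differences between PD03 and thrombin and are direct neighbours in the RefSeq gene table, and that of Igfbp6 because it held the only match to a motif fixed for the search. Sequences are RefSeq promoters on assembly GRCr8, which is not the build of the counts, and cover the 250 bases before an annotated start, 5′ to 3′ on the gene's strand, with matches in capitals (GGGCGG in Igfbp2, GTAAACA in Igfbp6).
Igfbp2 (chr9:81864561-81864810, plus strand): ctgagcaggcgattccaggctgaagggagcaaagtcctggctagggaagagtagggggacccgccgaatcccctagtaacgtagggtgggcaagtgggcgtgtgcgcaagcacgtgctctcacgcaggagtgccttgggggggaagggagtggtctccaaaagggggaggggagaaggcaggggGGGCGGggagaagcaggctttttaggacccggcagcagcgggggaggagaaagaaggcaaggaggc
Igfbp5 (chr9:81914188-81914437, minus strand): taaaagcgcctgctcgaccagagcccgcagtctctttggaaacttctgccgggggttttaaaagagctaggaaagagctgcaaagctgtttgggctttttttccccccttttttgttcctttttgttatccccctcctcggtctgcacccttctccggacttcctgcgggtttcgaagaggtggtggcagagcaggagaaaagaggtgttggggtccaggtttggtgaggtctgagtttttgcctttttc
Igfbp6 (chr7:135154669-135154918, plus strand): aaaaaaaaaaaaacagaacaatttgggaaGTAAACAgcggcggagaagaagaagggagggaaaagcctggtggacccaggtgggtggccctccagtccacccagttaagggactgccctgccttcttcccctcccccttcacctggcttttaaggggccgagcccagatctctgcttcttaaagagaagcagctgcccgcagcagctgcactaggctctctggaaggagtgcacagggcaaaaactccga

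All 10 genes had a window of 300 bases in the RefSeq promoter table (250 before and 50 after the start), and Igf2 had a pair of them. On both strands these windows were searched for TGANTCA (AP-1), CCGGAAGT (ETS), GTAAACA (FoxO) and TTCNNNGAA (STAT), letters that occur in 7.33%, 3.81%, 3.78% and 8.87% of all 33469 windows of that length. Only the Igfbp6 window held one of them, the FoxO letters 221 bases before the start (position -221). The GC box GGGCGG and the TATA box TATAAA, which were added afterwards, occur in 33.1% and 14.2% of all windows. GGGCGG was found in the windows of Igf1r, Igf2, Igfbp2 and Igfbp7, and TATAAA in that of Igfbp4, 40 bases before the start (position -40). The windows of Igfbp2 and Igfbp5 differed in base composition, with 66.7% and 50.7% G and C, beside a median of 51.7% over all windows. A match is only a run of letters, and the absence of one says nothing about other parts of these genes.

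Both ligands were lowest in the thrombin group. Igf2 (ENSRNOG00000020369) stood at 289, 283 and 288 CPM in the control libraries, 97.5, 90.0 and 88.4 CPM in the thrombin libraries and 303, 272 and 286 CPM in the PD03 libraries. The thrombin libraries lay far below all others, and the PD03 libraries spread around the control level. Its level was 3.12-fold lower with thrombin (log2 fold change -1.64, SE 0.04), 3.12-fold higher with PD03 than with thrombin (1.64, SE 0.04), and the difference of PD03 from control had a 95% interval of -0.08 to 0.08 on the log2 scale. Igf1 (ENSRNOG00000004517), the ligand most tied to growth hormone, was measured at 246, 245 and 233 CPM in the control libraries, 148, 146 and 146 CPM with thrombin and 324, 353 and 346 CPM with PD03. The 3 groups did not overlap, and here the PD03 libraries lay above the control libraries rather than at their level. The log2 difference of PD03 from control was 0.50 (95% interval 0.42 to 0.58), which did not reach the fold threshold.

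The 2 ligands differed in the size of these changes, with log2 fold changes of -0.72 for Igf1 and -1.64 for Igf2 with thrombin. As FPKM, where gene length is taken into account, Igf2 was the more abundant ligand in the control group, with 64.8 ± 1.24 against 55.7 ± 2.05 for Igf1 (mean ± SD, n = 3). In the thrombin group the order was the other way round, at 20.5 ± 1.12 for Igf2 and 33.4 ± 0.318 for Igf1, and in the PD03 group Igf1 was again ahead with 72.5 ± 3.26 against 59.8 ± 3.22. The FPKM ratio of Igf1 to Igf2 was 0.867, 0.885 and 0.824 in the control libraries, 1.55, 1.65 and 1.69 in the thrombin libraries and 1.09, 1.33 and 1.24 in the PD03 libraries, without overlap between groups. This ratio is taken within a library and does not depend on how libraries are scaled.

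The 2 receptors differed from each other. Igf1r (ENSRNOG00000014187), which binds both ligands, stood at 91.3, 86.2 and 87.3 CPM in the control libraries, 83.9, 84.0 and 82.9 CPM with thrombin and 82.4, 87.0 and 88.4 CPM with PD03. All libraries thus lay between 82.4 and 91.3 CPM, and it was not called in any comparison. The 95% intervals of its log2 fold changes were -0.18 to 0.02 with thrombin, -0.06 to 0.14 for PD03 against thrombin and -0.14 to 0.06 for PD03 against control. The direction for PD03 against thrombin depended on the scaling, with a log2 fold change of 0.04 after TMM scaling and -0.06 with library totals or from the FPKM values. Ghr (ENSRNOG00000015654) stood at 33.1, 27.9 and 26.7 CPM in the control libraries, 18.4, 16.8 and 17.3 CPM with thrombin and 27.0, 26.1 and 28.04 CPM with PD03. The thrombin libraries lay below the rest, and the PD03 libraries overlapped the control libraries, which were the most scattered for this gene. Its log2 fold changes were -0.74 with thrombin (SE 0.09) and 0.63 with PD03 against thrombin (SE 0.09). When the change was tested against a 1.5-fold threshold itself (edgeR's glmTreat), Ghr was called in neither comparison, and with library totals its log2 fold change of 0.53 for PD03 against thrombin was under the fold threshold.

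**Figure D2:**
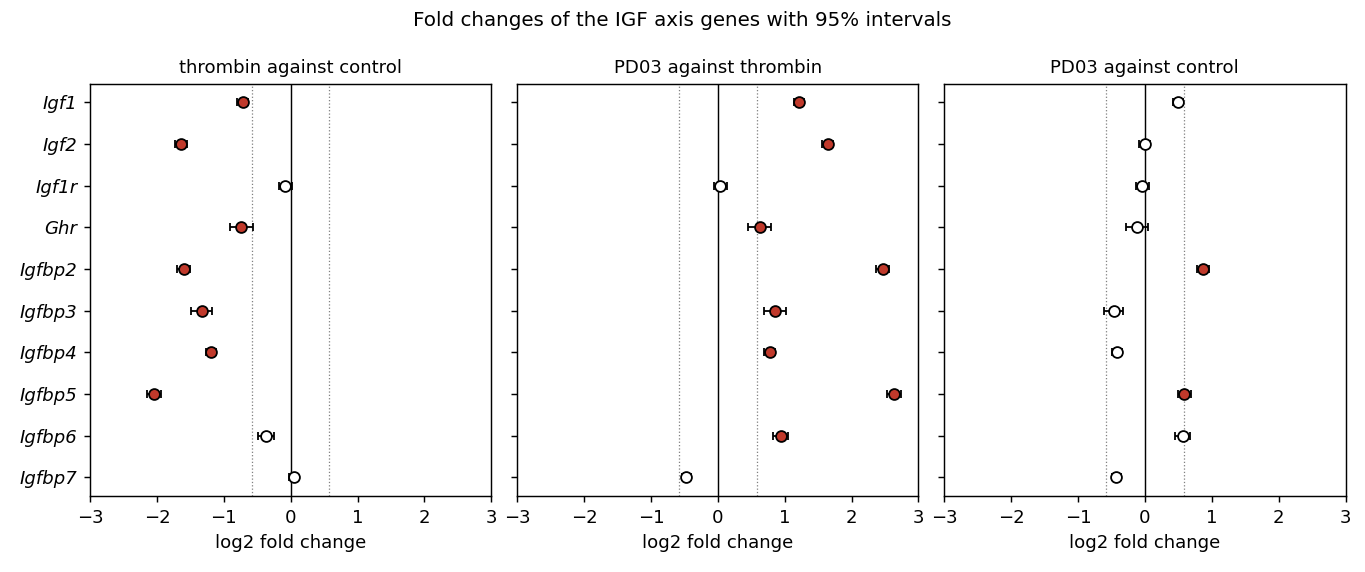
Log2 fold changes of the 10 genes in the 3 comparisons (horizontal axes, with 95% intervals from edgeR), where filled points were called and open points were not, and dotted lines mark 0.58 in either direction. The widest moves are those of Igfbp5, at -2.04 with thrombin and 2.63 with PD03 against thrombin, and the comparison of PD03 with control stays between -0.47 and 0.87.

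Igfbp5 and Igfbp2 had the largest differences of the 10 genes with PD03 against thrombin. They also did against control after TMM scaling, but there Igfbp5 (0.59) was hardly apart from Igfbp6 (0.57). With library totals, Igfbp3 (-0.58) differed more from control than Igfbp5 (0.47). For thrombin against control, Igf2 (-1.64) lay between Igfbp5 (-2.04) and Igfbp2 (-1.60) and close to the latter. Igfbp5 (ENSRNOG00000017206), the binding protein that attaches to bone matrix and is abundant in bone, stood at 583, 520 and 558 CPM in the control libraries, 152, 125 and 127 CPM with thrombin and 867, 778 and 853 CPM with PD03. Every thrombin library was below every control library, and every PD03 library was above all others. With thrombin its level was 4.12-fold lower than in controls (log2 fold change -2.04, SE 0.05) and 6.19-fold higher with PD03 than with thrombin (2.63, SE 0.05). Against control the log2 fold change of 0.59 (SE 0.05) lay just past the fold threshold. It was not called with glmTreat. It was under the threshold with library totals (0.47) and, at the same scaling, from the FPKM values with 1 added (0.47) or 0.1 added (0.47). The same held with no filter on low counts (0.58, unrounded below the threshold), and without Control replicate 2 (0.54), PD03 replicate 1 (0.56) or PD03 replicate 3 (0.57).

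Igfbp2 (ENSRNOG00000016957), a binding protein that lacks the acid-labile partner used by Igfbp3 and Igfbp5 in serum, stood at 166, 169 and 166 CPM in the control libraries, 54.5, 56.9 and 54.4 CPM with thrombin and 329, 286 and 300 CPM with PD03. The groups again did not overlap, with thrombin lowest and PD03 highest. The level was 3.03-fold lower with thrombin (log2 fold change -1.60, SE 0.05), 5.53-fold higher with PD03 than with thrombin (2.47, SE 0.05) and 1.83-fold higher with PD03 than in the control group (0.87, SE 0.04).

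Igfbp3 and Igfbp4 were also lowest with thrombin, but in the PD03 group they stopped short of the control level. Igfbp4 (ENSRNOG00000010635), known mainly as an inhibitor of IGF action that is inactivated by cleavage, stood at 363, 370 and 366 CPM in the control libraries, 161, 158 and 162 CPM with thrombin and 289, 266 and 267 CPM with PD03. No library of one group reached the range of another, and PD03 lay between the other 2 groups. The log2 fold changes were -1.19 with thrombin (SE 0.04), 0.77 with PD03 against thrombin (SE 0.04) and -0.42 with PD03 against control (SE 0.04), the last under the fold threshold. Igfbp3 (ENSRNOG00000061910), the main carrier of IGF in serum, stood at 43.7, 43.4 and 45.7 CPM in the control libraries, 16.4, 17.5 and 19.1 CPM with thrombin and 30.5, 30.1 and 35.7 CPM with PD03. It kept the same order of groups as Igfbp4 at a lower level. The log2 fold changes were -1.33 (SE 0.08), 0.86 (SE 0.08) and -0.47 (SE 0.07), and with library totals the difference of PD03 from control was just past the fold threshold at -0.58.

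Igfbp6 (ENSRNOG00000010977), which binds IGF2 in preference to IGF1, differed little with thrombin and stood highest with PD03. It was measured at 51.3, 53.3 and 50.1 CPM in the control libraries, 39.0, 39.6 and 40.6 CPM with thrombin and 79.5, 72.5 and 76.7 CPM with PD03. The groups were separate, but the distance from control to thrombin was the smaller one. The log2 fold change with thrombin was -0.37 (SE 0.06) and was not called, that of PD03 against thrombin was 0.94 (SE 0.06) and was called, and that of PD03 against control was 0.57 (SE 0.06), just under the fold threshold. Without Control replicate 2 or PD03 replicate 2 the last value reached 0.58 and 0.59 and was called.

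Igfbp7 (ENSRNOG00000002050), a secreted relative with low affinity for IGF, did not share the order of the other binding proteins. It stood at 478, 499 and 503 CPM in the control libraries, 519, 516 and 490 CPM with thrombin and 374, 367 and 360 CPM with PD03. Control and thrombin libraries overlapped, and the PD03 libraries lay below both. The log2 fold change was 0.05 with thrombin (95% interval -0.03 to 0.12), -0.47 with PD03 against thrombin (SE 0.04) and -0.42 with PD03 against control (SE 0.04), and none of these was called, the PD03 comparisons because they were under the fold threshold.

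Ordered by FPKM, Igfbp7 was the most abundant of the 10 transcripts in each group, with 376 ± 6.88 in the control group, 383 ± 12.8 with thrombin and 258 ± 5.27 with PD03. In the control group Igfbp4, Igfbp2, Igfbp5 and Igf2 followed with 149, 131, 98.1 and 64.8, then Igf1 and Igfbp6 with overlapping values of 53.4 to 57.3 and 53.1 to 56.6, Igf1r and Igfbp3 with overlapping values of 18.9 to 20.3 and 18.4 to 19.4, and Ghr with 8.88. In the PD03 group the order was different, with Igfbp2 next at 221 ± 15.8, Igfbp5 then at 136 ± 7.59 and Igfbp4 behind them at 103 ± 5.00. Igfbp6 and Igf1 overlapped there, at 71.6 to 78.3 and 68.9 to 75.2. In the thrombin group Igfbp4 came second at 64.5 ± 0.860, Igfbp2 and Igfbp6 overlapped at 42.0 to 44.1 and 41.2 to 42.7, and Igfbp5 fell back to 23.5 ± 2.67, below Igf1. These comparisons between genes rest on the gene lengths used by the authors, which the counts and FPKM values imply to be 966 bases for Igfbp6 and 5819 bases for Igfbp5, the shortest and the longest of the 10.

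The makeup of the binding-protein transcripts therefore differed between groups. Of the summed FPKM of the 6 binding proteins, Igfbp7 took 45.4% ± 0.804 in the control group, 68.0% ± 0.703 with thrombin and 32.1% ± 1.07 with PD03 (mean ± SD, n = 3). The share of Igfbp5 was 11.8% ± 0.764, 4.18% ± 0.410 and 16.9% ± 0.520, and that of Igfbp2 was 15.8% ± 0.181, 7.60% ± 0.207 and 27.4% ± 0.825. Igfbp4 held 18.0% ± 0.147 in the control group, 11.4% ± 0.347 with thrombin and 12.8% ± 0.211 with PD03, so that its share in the PD03 group, unlike those of Igfbp2 and Igfbp5, lay below that of the controls. The ratio of Igfbp2 to Igfbp4 (FPKM) was 0.878 ± 0.0043, 0.664 ± 0.0263 and 2.14 ± 0.0634 in the control, thrombin and PD03 groups. The shares of Igfbp6 were 6.64%, 7.45% and 9.31%, and those of Igfbp3 were 2.28%, 1.32% and 1.57%. All these shares have Igfbp7 in the sum, and its level hardly differed between control and thrombin. Without Igfbp7 the summed FPKM was 452.3, 180.2 and 547.5 in the control, thrombin and PD03 groups. Of that sum, Igfbp4 and Igfbp6 had their highest shares with thrombin, and the share of Igfbp3 was close in control and thrombin. The shares of Igfbp2 and Igfbp5 kept their order of groups.

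Set against the ligands, the summed binding proteins were 6.71, 6.89 and 7.02 times the summed FPKM of Igf1 and Igf2 in the control libraries, 10.3, 10.6 and 10.4 times in the thrombin libraries and 6.38, 5.89 and 6.01 times in the PD03 libraries. The thrombin libraries had the highest ratios, but this order rested on Igfbp7. Without it, the mean ratio was 3.75 ± 0.0377 in the control group, 3.34 ± 0.0621 with thrombin and 4.14 ± 0.23 with PD03, so that the thrombin libraries had the lowest ratios. These are ratios of transcripts, and the deposited data hold no protein values. For Igf1 protein the paper reports, by western blot, a decrease with thrombin that PD03 reversed.

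**Figure D3:**
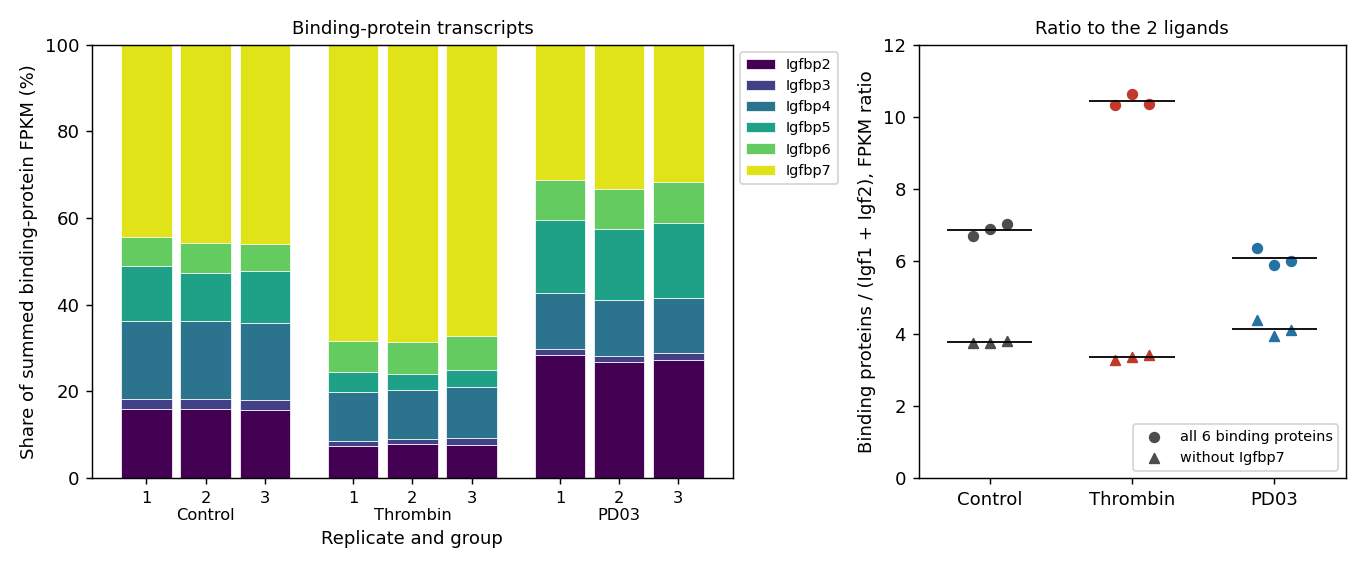
Left, share of each binding protein in the summed binding-protein FPKM (percent) of each of the 9 libraries; right, FPKM ratio of summed binding proteins to Igf1 plus Igf2, with 1 point per library, a line at the mean, and circles with or triangles without Igfbp7. Igfbp7 takes 68.0% of the thrombin bars on average, and leaving it out turns the thrombin group from the highest ratio to the lowest.

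The likeness of expression patterns was measured as the root-mean-square difference of mean-centred log2 CPM over the 9 libraries, which are shared by all genes. Within the axis, the most alike pairs were Igfbp3 and Igfbp4 (0.114), Igf1 and Igfbp6 (0.163) and the neighbouring genes Igfbp2 and Igfbp5 (0.209). The last pair was hardly apart from Ghr and Igfbp4 (0.216) and from Igf1r and Igfbp7 (0.224). Among 8968 other genes whose mean CPM reached 10, Igfbp4 was itself the gene closest to Igfbp3, but Sectm1b and Tshz2 were practically as close (0.115 each). The gene closest to Igfbp4 was Slit3 (0.0496), to Igfbp6 Mmp23 (0.0471), to Igf1 Matn2 (0.0632), to Ghr Ebf3 (0.0597), to Igf1r Cdc42bpb (0.0241) and to Igfbp7 Dpp9 (0.0299). For the genes with wider moves the closest ones were less near, namely Cryab for Igfbp2 (0.0986), C4a for Igf2 (0.104) and Wdr86 for Igfbp5 (0.125), beside median differences of 1.03, 0.79 and 1.14 from all other genes. Reads of C4a may be shared with its near-identical copy.

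A further list of 42 genes of the pathway was drawn up without the members, also with earlier results of these data known. The numbers called and the adjusted p-values below therefore describe its genes and are not independent evidence. Of the 42 genes, 36 could be tested. Of these, 3 were called lower and none higher with thrombin (8.33% of them, beside 8.06% of all tested genes called in either direction). With PD03 against thrombin, 7 were called higher and 4 lower (30.6%, beside 15.9% of all tested genes), and with PD03 against control 2 were called higher and 3 lower (13.9%, beside 8.97%). The median log2 fold changes of the 36 genes were -0.03, 0.04 and 0.02. Igfbp1, Igfbpl1 and Irs4 had no row under these symbols in the deposited data. Igfals, which encodes the acid-labile subunit of the serum IGF complex, had at most 4 counts in a library and none with thrombin or PD03. Insrr and Prlr had at most 3 and 1.

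Among the proteases that release IGF from its binding proteins and their inhibitors, the members moved in different directions. Pappa2, a protease of Igfbp3 and Igfbp5, fell from 18.4, 19.4 and 19.5 CPM in the control libraries to 8.62, 8.23 and 9.68 CPM with thrombin (log2 fold change -1.11, SE 0.10, adjusted p = 4.0e-12) and rose to 24.6, 28.9 and 26.8 CPM with PD03 (1.60 against thrombin, SE 0.10, adjusted p = 8.3e-18). Pappa, a protease of Igfbp4, had the opposite order, at 118.6 ± 1.69 CPM in the control group, 150.4 ± 4.13 CPM with thrombin and 86.2 ± 8.03 CPM with PD03. Its difference between PD03 and thrombin was called (log2 fold change -0.81, SE 0.05, adjusted p = 1.7e-17), whereas that between thrombin and control was under the fold threshold (0.34, adjusted p = 3.1e-07). Stc1, an inhibitor of such proteases, was at 33.1 ± 4.14 CPM in the control group and 37.5 ± 5.34 CPM with thrombin and rose to 111.7 ± 7.38 CPM with PD03 (1.57 against thrombin, adjusted p = 7.2e-22). Its relative Stc2 fell from 88.5 ± 2.10 CPM to 46.1 ± 3.43 CPM with thrombin (-0.94, adjusted p = 1.2e-17) and remained at 42.7 ± 0.680 CPM with PD03 (-1.05 against control, adjusted p = 4.1e-19). C1s, a complement protease that can cleave Igfbp5, stood at 762.8 ± 6.17, 515.0 ± 11.98 and 901.8 ± 17.2 CPM in the control, thrombin and PD03 groups, and rose with PD03 against thrombin (0.81, adjusted p = 6.9e-24). Its log2 fold change of -0.57 with thrombin (adjusted p = 2.8e-18) was just under the fold threshold. It was called lower with library totals (-0.58), at the same scaling from both FPKM settings (-0.58 and -0.58), and without Thrombin replicate 1 (-0.58).

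H19, a noncoding RNA of the imprinted domain that also holds Igf2, fell from 206, 218 and 212 CPM in the control libraries to 61.7, 56.5 and 58.8 CPM with thrombin (log2 fold change -1.85, SE 0.05, adjusted p = 3.2e-28) and stood at 128, 106 and 108 CPM with PD03. The groups did not overlap. Unlike Igf2, H19 in the PD03 group remained below control (-0.89, SE 0.05, adjusted p = 2.3e-18) while being above thrombin (0.96, adjusted p = 2.4e-18). Igf2bp1, which encodes an RNA-binding protein named for its binding to Igf2 mRNA, fell with PD03 against thrombin (-0.87, SE 0.09, adjusted p = 1.1e-10). Against control its log2 fold change of -0.54 was under the fold threshold. It was called lower there with library totals (-0.66), from FPKM with 0.1 added (-0.64) and without Control replicate 2 (-0.58).

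The other receptors and the relays below them moved less. Igf2r, the receptor that clears IGF2, stood at 618 ± 8.23, 738 ± 16.2 and 740 ± 34.0 CPM, with a log2 fold change of 0.26 with thrombin (adjusted p = 9.2e-08) that was under the fold threshold. The insulin receptor Insr had log2 fold changes of 0.11 with thrombin (adjusted p = 0.27) and 0.22 with PD03 against thrombin (adjusted p = 0.0079), and Irs2 of -0.02 (adjusted p = 0.88) and -0.13 (adjusted p = 0.073). With PD03 against thrombin, the docking protein Irs1 rose by 0.67 (adjusted p = 2.7e-10), the receptor-binding adaptor Grb14 by 0.61 (adjusted p = 1.4e-11) and the transcription factor Foxo1 by 0.78 (adjusted p = 6.6e-08), while the adaptor Shc1 had a log2 fold change of -0.61 (adjusted p = 4.9e-18) and Socs3, an inhibitor of cytokine receptors, of -0.68 (adjusted p = 1.5e-15). Grb14 was also called higher and Socs3 lower in the PD03 group against control, with log2 fold changes of 0.59 and -0.74. Shc1 was just under the fold threshold against control (-0.56). It was called lower there with library totals (-0.67), at the same scaling from both FPKM settings, and without PD03 replicate 1 (-0.59). With thrombin, Foxo1 had a log2 fold change of -0.52 (adjusted p = 3.1e-04) and was called lower only without Control replicate 2 (-0.60). The calls of Irs1, Grb14, Foxo1, Shc1 and Socs3 for PD03 against thrombin were lost when the change was tested against the 1.5-fold threshold itself, and those of Irs1 and Grb14 also with library totals, at 0.57 and 0.51. Without Thrombin replicate 1 or PD03 replicate 2, Grb14 was not called for PD03 against thrombin (0.56 and 0.54), and without Control replicate 2 or PD03 replicate 2 it was not called against control (0.53 and 0.52). The call of Grb14 against control was also lost with glmTreat, with library totals (0.48) and, at the same scaling, from FPKM with 1 or 0.1 added (0.47 and 0.48).

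**Figure D4:**
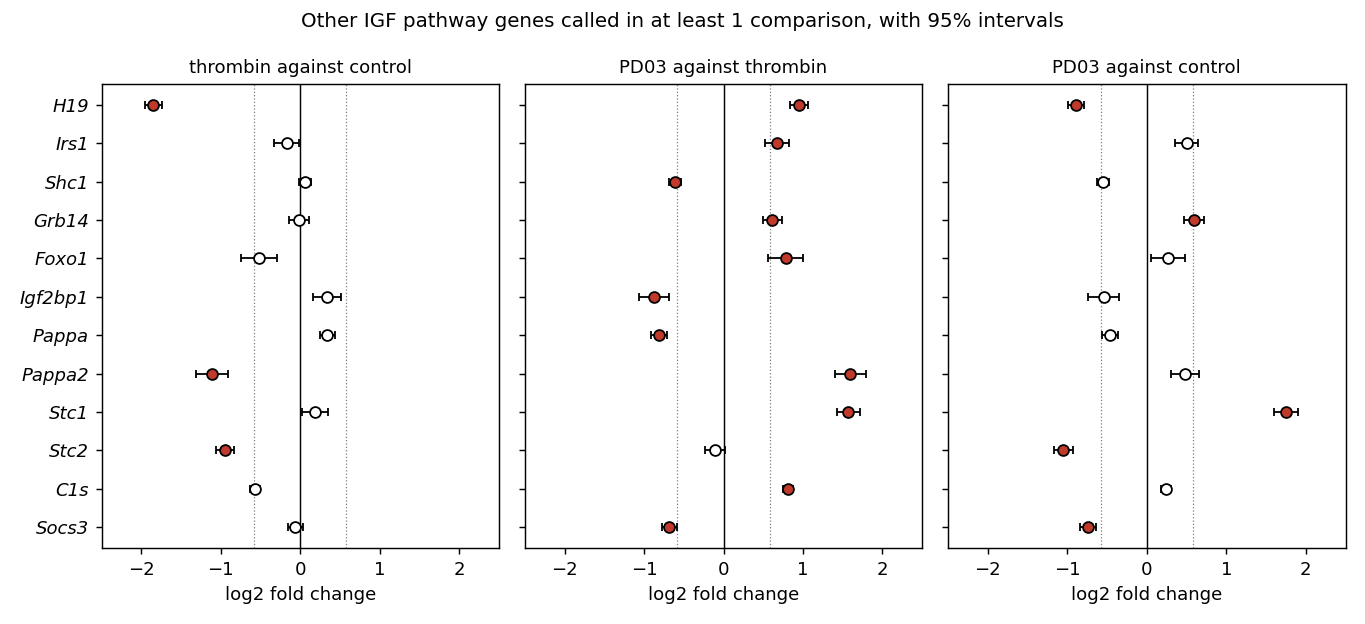
Log2 fold changes with 95% intervals (horizontal axes) for the 12 other IGF pathway genes called in at least 1 comparison, where filled points were called and dotted lines mark 0.58 in either direction. H19 and Stc2 stay below control in the PD03 group, at -0.89 and -1.05, whereas Stc1 stands above it at 1.75.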

How the data were processed

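The authors deposited 1 table with raw counts and FPKM values per gene and library. Reads were aligned with HISAT2. The paper names featureCounts and Rnor_6.0, the submitters' processing notes name HTSeq 0.13.5 and mRatBN7.2, and the conflict could not be settled here. Annotation release and strandedness: not given in the sources used here. Therefore reads of overlapping or antisense transcripts cannot be told apart. The FPKM values deposited by the authors are counts divided by library total and a fixed gene length. Results with library totals and from FPKM therefore share 1 scaling and are not separate checks of it.

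Counts were filtered with filterByExpr (minimum count 10), scaled by TMM and fitted in 1 model of 3 groups with edgeR 4.0.16 (glmQLFit, glmQLFTest) in R 4.3.3. The SE was derived from the F statistic. At these depths 3 counts correspond to 0.159 to 0.194 CPM in a library, which covers counting error only. No libraries of a group agreed within sampling noise (chi-square over degrees of freedom 1.82 to 4.03). In all 3 groups replicate 1 stood apart, with 3.06 to 4.03 for pairs that include it and 1.82 to 2.15 for replicates 2 and 3. The cause of this was not tested. Alternatives used DESeq2 1.42.0 and limma 3.58.1, and the procedure was tested on simulated data. The members, lists and motifs were chosen with earlier results of these data known. All members are named, and so are pathway genes called at least once plus 7 fixed ones, of which Igfbp1 had no row under that symbol. Figures used matplotlib 3.10.9.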

Additional observations from a re-analysis of the deposited data

How the results depend on the processing

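Of 600 alternative values for the members' log2 fold changes, 575 kept direction and call, 13 lost the call, 4 gained it and 8 changed sign. The sign changes concerned values near 0: Igf1r for PD03 against thrombin (-0.0599 with library totals, -0.0563 and -0.0592 from FPKM with 1 or 0.1 added) and Igf2 for PD03 against control (0.0011 with DESeq2's size factors or test, and -0.0421 to 0.03 without single libraries). Among other pathway genes, Igf2r for PD03 against thrombin turned to -0.0045 with DESeq2's size factors or test, -0.0963 with library totals, -0.0152 with no filter, -0.0957 and -0.0968 from FPKM and -0.0064 with only the 2 groups compared, and ranged from -0.0307 to 0.0397 without single libraries. Leaving out single libraries also changed the sign of Irs2 (-0.0524 to 0.0451) and Grb14 (-0.0669 to 0.0401) with thrombin. The number of members called with PD03 against control was 2, and 1 with no filter, with glmTreat, from FPKM with 1 added, and 1 to 3 without single libraries (1 without PD03 replicate 1 or 3). With library totals it was again 2, but 1 of them was Igfbp3 in place of Igfbp5. With glmTreat, 6 of the other pathway genes in place of 11 were called with PD03 against thrombin. Over all genes, 1068, 2110 and 1189 were called with thrombin, with PD03 against thrombin and with PD03 against control, compared with 456, 1038 and 494 with glmTreat and 543, 1254 and 676 from FPKM with 1 added. From FPKM with 0.1 added the numbers were 1011, 2123 and 1316, nearer to the main ones. The cause of the FPKM differences was not tested, and glmTreat asks for a larger change by construction. The share of calls that were higher was 60.4% for PD03 against thrombin and 54.6% for PD03 against control, but 46.5% and 34.1% with library totals, which shifted the median over all genes in the latter to -0.12. Correlations of the samples' deviations from their group means were -0.0456 to 0.0523 for same-numbered samples and -0.0563 to 0.0554 for others. They thus showed no pairing by replicate number. They cannot exclude a shared preparation, and replicate 1 stood apart in all 3 groups. With the replicate block 7, 8 and 2 members were called, as without it.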
